A study of Mus musculus with 10 samples.

Results

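The MS4A gene cluster and the adjacent-gene pair Tmem176a and Tmem176b were examined in 2 cell types. These were spleen myeloid-derived suppressor cells (MDSC) and tumor-associated macrophages (TAM). They came from tumor-bearing mice with SHP-2 intact or conditionally targeted in myeloid cells. The set held 8 Ms4a genes (Ms4a4a, Ms4a4b, Ms4a4c, Ms4a6b, Ms4a6c, Ms4a6d, Ms4a7 and Ms4a8a) and 2 Tmem176 genes, 10 of the 55421 genes in the deposited count table. The members were chosen by name, with their differences between genotypes and between cell types in these same libraries already known. Each value below therefore describes the genes and is no independent test of them, and p-values are those of the fit over all genes. All 10 passed the filter on low counts in every comparison.

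MS4A proteins pass through the membrane several times, and many of them act as adaptors or partners of surface receptors. Mouse myeloid cells carry an expanded set of them from the Ms4a4 and Ms4a6 branches, and Ms4a7 is best known from tissue macrophages. TMEM176A and TMEM176B are related membrane proteins of intracellular compartments in monocytes, macrophages and dendritic cells. TMEM176B is a cation channel known to restrain the NLRP3 inflammasome, the complex that matures interleukin-1 beta.

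The 10 libraries formed 4 groups, made of 2 cell types and 2 genotypes. All mice were young adults bearing subcutaneous MC17-51 fibrosarcomas, a transplanted mouse tumor line, and were used at day 15. Shp2f/f mice carry floxed Ptpn11, the gene of the phosphatase SHP-2, and Shp2f/fLysMcre mice carry in addition Cre recombinase expressed from the lysozyme M locus, which is active in monocytes, macrophages and neutrophils. MDSC were taken from the spleen with magnetic beads (n = 2 for each genotype) and TAM from the tumor by sorting live CD11b+F4/80+ cells (n = 3 for each genotype), so that organ and isolation cannot be told apart from cell type. Per the study's methods each mouse gave spleen and tumor cells, but the labels do not pair the samples or say whether animals were pooled, and p-values measure the spread between these samples. Total counts ran from 28844660 to 38222998 a library.

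Marker genes were read first as a check of the labels. The 8 macrophage markers summed to 7091 to 7442 CPM (counts scaled to a common library size with TMM, a trimmed-mean factor per library) in TAM Shp2f/f and to 2439 to 2534 CPM in MDSC Shp2f/f. The study describes the MDSC as Ly6G+Ly6C-, yet Ly6g, which defines that fraction, was at 8.91 to 33.2 CPM in the 4 MDSC libraries, whereas Ly6c2 was at 476 to 576 CPM and the monocyte receptor gene Ccr2 at 1207 to 1963 CPM. The samples are called MDSC here, as labelled. In MDSC the 8 neutrophil markers summed to 8612 to 8752 CPM in Shp2f/f and to 20332 to 24590 CPM in Shp2f/fLysMcre, with 4 of 8 called higher, and the 5 monocyte markers summed to 6522 to 7005 and to 4037 to 5841 CPM. In TAM all 8 macrophage markers were called higher in Shp2f/fLysMcre, where they summed to 9950 to 10840 CPM. Other lists held calls in TAM as well, with 5 of 7 tested neutrophil markers called higher (median log2 fold change 0.54, sums of 293 to 309 and of 477 to 504 CPM), 3 of 5 monocyte markers called higher and 1 lower (sums of 2273 to 2363 and of 2774 to 2821 CPM), and 2 of 4 tested dendritic cell markers called lower (sums of 13.7 to 15.3 and of 10.8 to 11.1 CPM). Among all genes tested, 23.9% were called higher and 26.3% lower in TAM, and 3.76% higher and 0.52% lower in MDSC. None of the macrophage, neutrophil and monocyte lists had a marker at 0 in every library of a group. In bulk samples such as these, a change in the number of cells of a type cannot be told apart from a change in RNA per cell. Sex-linked genes also differed between genotypes, with Xist higher in Shp2f/fLysMcre (log2 fold change 4.85 in TAM and 11.92 in MDSC) and Eif2s3y lower (log2 fold change -1.57 in TAM and -1.39 in MDSC). The part of these differences in the values that follow was not tested.

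The Ms4a members lay within chr19:11067471-11604849 (GRCm38). Ms4a8a (11067471 to 11081102), Ms4a7 (11321039 to 11336146) and Ms4a6d (11586604 to 11604849) are on the minus strand. Ms4a4a (11375523 to 11392790), Ms4a4c (11404770 to 11427246), Ms4a4b (11443553 to 11467055), Ms4a6c (11469366 to 11482192) and Ms4a6b (11516512 to 11531256) follow each other on the plus strand. Tmem176b (chr6:48833818-48841496, minus strand) and Tmem176a (chr6:48840919-48847071, plus strand) are arranged head to head and share 81 exonic bases on opposite strands. All 10 are protein coding.

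The plus-strand genes include close paralogs, and their upstream sequences (RefSeq, GRCm38.p6) show how alike neighbours are that behaved alike or not. Ms4a4c and Ms4a4b, whose differences between TAM genotypes had opposite signs, shared 192 of 250 bases (76.8%) before their starts in a global alignment. Ms4a6c and Ms4a6b, which were both higher in TAM Shp2f/fLysMcre, shared 155 of 250 (62.0%). By the same measure all other pairs of members with a window lay between 53.2% and 62.8%. The value of Ms4a6c and Ms4a6b is within that range, and that of Ms4a4c and Ms4a4b is above it. The stretches that lie outside annotated exons are shown 5′ to 3′ on the plus strand, with the longest run common to the printed stretches of each pair in capitals. They are chr19:11407411-11407660 for Ms4a4c, chr19:11443308-11443552 for Ms4a4b, chr19:11469118-11469365 for Ms4a6c and chr19:11518309-11518452 for Ms4a6b.
Ms4a4c: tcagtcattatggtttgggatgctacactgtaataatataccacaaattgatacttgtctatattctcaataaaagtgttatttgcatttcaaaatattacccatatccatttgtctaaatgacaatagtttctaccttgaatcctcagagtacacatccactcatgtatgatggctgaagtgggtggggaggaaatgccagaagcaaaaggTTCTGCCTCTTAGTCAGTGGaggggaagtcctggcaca
Ms4a4b: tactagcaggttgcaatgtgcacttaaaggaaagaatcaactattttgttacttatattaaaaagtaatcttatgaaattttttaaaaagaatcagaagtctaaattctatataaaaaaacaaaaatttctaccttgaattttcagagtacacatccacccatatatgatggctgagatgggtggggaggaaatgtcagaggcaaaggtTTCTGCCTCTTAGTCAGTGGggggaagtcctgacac
Ms4a6c: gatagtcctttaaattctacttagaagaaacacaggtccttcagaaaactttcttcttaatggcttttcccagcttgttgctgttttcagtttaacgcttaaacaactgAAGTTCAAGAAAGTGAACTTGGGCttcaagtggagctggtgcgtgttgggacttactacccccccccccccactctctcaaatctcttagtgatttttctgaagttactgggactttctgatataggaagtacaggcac
Ms4a6b: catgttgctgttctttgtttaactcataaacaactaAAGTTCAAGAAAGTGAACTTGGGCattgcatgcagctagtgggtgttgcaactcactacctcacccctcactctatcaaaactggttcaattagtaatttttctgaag

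The run shared by Ms4a4c and Ms4a4b was 20 bases long and began 38 and 41 bases before the respective starts. That of Ms4a6c and Ms4a6b was 24 bases long and ended 118 and 191 bases before them. Identities were taken over the whole windows of 250 bases. There Ms4a6c and Ms4a6b also shared a longer run of 48 bases, beginning 49 and 118 bases before their starts. It reaches into annotated exon and is neither printed whole nor in capitals. The RefSeq table held 13 start windows for 9 of the 10 members, and none for Ms4a6d. The 250 bases before each start were searched on both strands for GAGGAAGT (an ETS motif with the flank preferred by PU.1), GAAANNGAA (the core of the interferon response element), TTGCNNAA (C/EBP) and TGANTCA (AP-1), which 2.44%, 7.13%, 9.56% and 6.75% of all 32851 promoters in the table contained. No 2 of these motifs overlapped in a member window. The motifs were chosen after the sequences had been seen. GAAANNGAA occurred inside the 24-base run shared by Ms4a6c and Ms4a6b, 133 and 206 bases before their starts, and 71 and 148 bases before the 2 starts of Ms4a7. TGANTCA occurred 244 bases before the start of Ms4a8a and 81 bases before one start of Ms4a7, and the other windows held none of the 4 motifs. The Tmem176 windows were exonic in 242 to 250 of their 250 bases, because each gene starts inside or beside the other, and are not printed.

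The floxed gene was examined first. Ptpn11 was at 121, 125 and 121 CPM in TAM Shp2f/f and at 50.9, 54.2 and 53.8 CPM in TAM Shp2f/fLysMcre, which did not overlap (log2 fold change -1.24, SE 0.04, adjusted p = 2.96e-09 by edgeR's quasi-likelihood test). In MDSC it was at 113 and 99.2 CPM in Shp2f/f and at 94.8 and 79.6 CPM in Shp2f/fLysMcre, a difference of -0.29 (SE 0.14) that did not pass the threshold (edgeR adjusted p = 0.361). The gene thus checked the genotype labels in TAM and did not do so in MDSC. Counts covered the whole gene and not the floxed segment alone.

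To determine how the family responded to SHP-2 deletion in macrophages, the TAM genotypes were compared. Of the 10 members, 9 were higher in Shp2f/fLysMcre TAM and 1, Ms4a4b, was lower at an adjusted p under 0.05. Across the 14446 genes tested in TAM, 23.9% were called higher and 26.3% lower. The members had a median log2 fold change of 0.49, beside -0.01 over all genes tested. Since the members were picked with this comparison in view, the count is a description. Scaling by total counts moved the median of all genes to -0.11 and the calls to 2342 higher and 5227 lower, from 3452 and 3805, and each member kept its sign there. The 8 macrophage markers had a median of 0.59 in the same comparison.

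**Figure D1:**
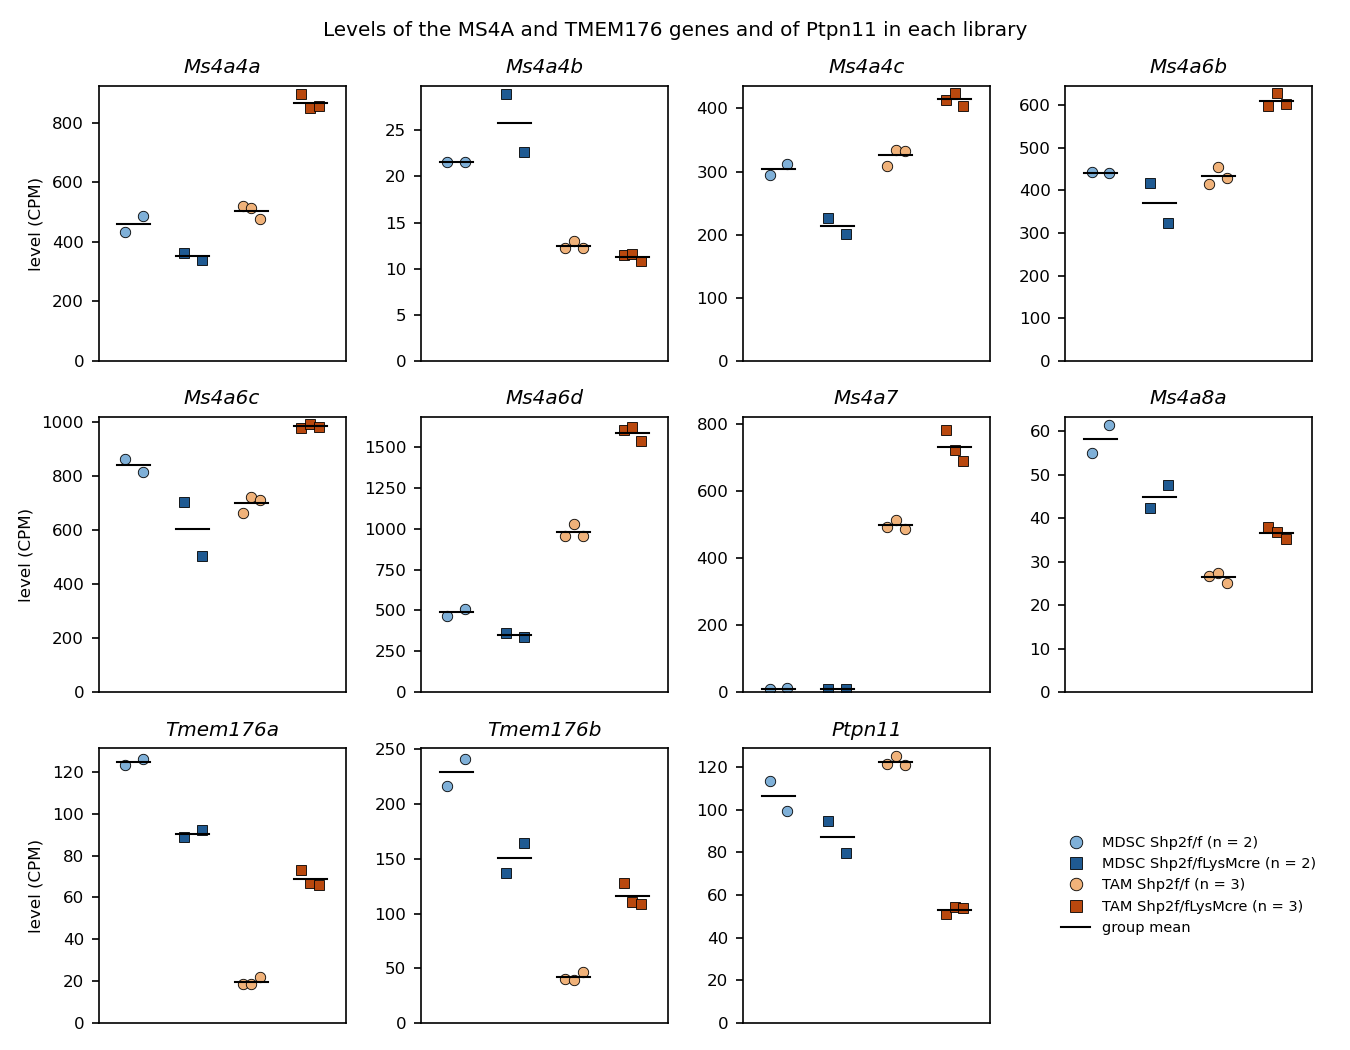
Level of each member and of Ptpn11 (vertical axis, CPM from 0) in each of the 10 libraries, with points as libraries and lines as group means. For 9 members the 3 TAM Shp2f/fLysMcre libraries sit above the 3 TAM Shp2f/f libraries (30.7% of all genes tested do so), Ms4a4b excepted, and Ms4a7 stays at 7.50 to 10.7 CPM in MDSC.

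The Tmem176 pair showed the largest differences among the members. Tmem176a was at 18.7, 18.5 and 21.8 CPM in TAM Shp2f/f and at 73.1, 66.7 and 66.2 CPM in TAM Shp2f/fLysMcre. Each library of the second group was above every library of the first, as for 9 of the 10 members and for 30.7% of all genes tested (27.2% were separate in the lower direction). The fitted difference was 3.41-fold (log2 fold change 1.77, SE 0.07, edgeR adjusted p = 1.31e-08). Tmem176b, which encodes the channel, was at 40.0, 39.0 and 47.0 CPM in TAM Shp2f/f and at 128, 111 and 109 CPM in TAM Shp2f/fLysMcre. The groups were again separate, with a 2.69-fold difference (log2 fold change 1.43, SE 0.08, edgeR adjusted p = 1.46e-07).

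The ratio of the paired genes was compared within libraries, where no scaling is needed. Tmem176a counts per Tmem176b count were 0.468 ± 0.00523 (SD, n = 3) in TAM Shp2f/f and 0.594 ± 0.0205 (n = 3) in TAM Shp2f/fLysMcre. The 3 lowest ratios in TAM all belonged to Shp2f/f, which gave p = 0.1 in a two-sided exact permutation test, the smallest that 3 against 3 allows. In MDSC the ratios were 0.546 ± 0.0322 and 0.604 ± 0.0616 (n = 2 each), and the groups overlapped (exact permutation p = 0.667, with 0.333 the smallest possible).

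**Figure D2:**
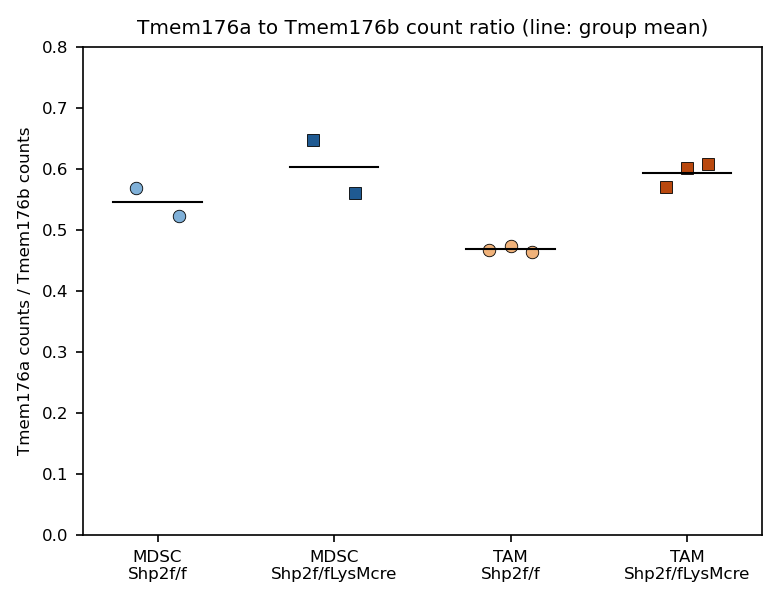
Ratio of Tmem176a to Tmem176b counts (vertical axis, from 0) in each library of the 4 groups, with lines at the group means. TAM Shp2f/f libraries lie at 0.464 to 0.474 and TAM Shp2f/fLysMcre libraries at 0.570 to 0.609, and the MDSC groups overlap.

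Among the Ms4a genes, Ms4a4a and Ms4a6d differed most between the TAM genotypes. Ms4a4a, whose human counterpart associates with the beta-glucan receptor dectin-1 on macrophages, was at 519, 512 and 476 CPM in Shp2f/f and at 896, 848 and 857 CPM in Shp2f/fLysMcre. This was a 1.68-fold difference with no overlap (log2 fold change 0.75, SE 0.04, edgeR adjusted p = 1.48e-07). Ms4a6d, a myeloid member studied in inflammasome activation, was at 955, 1032 and 959 CPM in Shp2f/f and at 1605, 1623 and 1537 CPM in Shp2f/fLysMcre, the highest CPM of any member. Its groups lay apart as well (log2 fold change 0.66, SE 0.04, edgeR adjusted p = 1.29e-07).

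Ms4a7, a gene of differentiated macrophages, was at 493, 514 and 487 CPM in TAM Shp2f/f and at 783, 723 and 691 CPM in TAM Shp2f/fLysMcre. The highest Shp2f/f library was below the lowest Shp2f/fLysMcre library (log2 fold change 0.52, SE 0.05, edgeR adjusted p = 4.36e-06). The remaining 4 genes that rose did so by smaller steps, from 0.31 for Ms4a4c to 0.46 for Ms4a6b and Ms4a6c on the log2 scale. Ms4a6c was at 661 to 723 CPM in Shp2f/f and at 975 to 993 CPM in Shp2f/fLysMcre, and Ms4a6b was at 415 to 454 and at 598 to 630 CPM. Ms4a4c was at 309 to 335 and at 404 to 424 CPM. Ms4a8a, reported in alternatively activated macrophages, was the lowest of these, at 25.1 to 27.3 CPM in Shp2f/f and at 35.2 to 37.9 CPM in Shp2f/fLysMcre, a 1.36-fold difference (log2 fold change 0.44, SE 0.05, edgeR adjusted p = 2.16e-05). None of these 4 overlapped between the genotypes, beside 30.7% of all genes tested that were separate in this direction.

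Ms4a4b, known mainly from T lymphocytes, was the exception. It was at 12.2, 12.98 and 12.3 CPM in TAM Shp2f/f and at 11.5, 11.6 and 10.9 CPM in TAM Shp2f/fLysMcre, close but not overlapping. The difference of -0.18 (SE 0.06) was called with an edgeR adjusted p of 0.0310, and across the alternatives the adjusted p ran from 0.00225 to 0.290. Leaving out TAM Shp2f/f replicate 2 or 3, or TAM Shp2f/fLysMcre replicate 2 or 3, ended the call (adjusted p = 0.106, 0.0666, 0.0672 and 0.0864). All 8 T and NK cell markers were called lower in the same comparison, with a summed level of 7.74 to 8.67 CPM in Shp2f/f and of 3.30 to 3.56 CPM in Shp2f/fLysMcre. Across all genes tested in TAM, 26.3% were called lower. The part of these markers in the Ms4a4b value was not tested.

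Reads can be shared between paralogs, and the counting settings for such reads and for strand were not given in the sources used here. Of all 42-base words in the annotated transcripts of Ms4a4c, 10.6% also occurred in another gene, mostly Ms4a4b, and the share was 5.32% for Ms4a6b, 3.93% for Ms4a6d and 3.20% for Ms4a4b. Ms4a6c shared 54.1%, nearly all with the antisense gene BE692007, which had at most 35 counts in any library. The other members shared under 1%.

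Next, the genotypes were compared in MDSC. None of the 10 members passed the threshold in either direction by edgeR's fit of the 4 MDSC libraries, beside a background of 3.76% of 14806 genes called higher and 0.52% called lower. At an unadjusted p under 0.05 the count was 0 higher and 7 lower, beside 13.3% and 6.03% of all genes tested. DESeq2 called 4 members lower (Ms4a4c, Ms4a6d, Tmem176a and Tmem176b), beside 1.95% of all genes. A fit of all 10 libraries together, in which TAM and MDSC share one estimate of the spread, called 7 lower, beside 5.59%. With the replicate number as a block, 6 were called lower, beside 5.43%. The members' median log2 fold change was -0.43, and 9 of 10 had a negative value, opposite to TAM. The 5 monocyte markers had a median of -0.53, with 0 called by edgeR, 2 lower at an unadjusted p under 0.05 and 2 lower by DESeq2. The 8 macrophage markers had a median of -0.29, with 0 called by edgeR, 3 lower at an unadjusted p under 0.05 and 3 lower by DESeq2. The part of both lists in the members' values was not tested. The 2 Shp2f/fLysMcre replicates differed more from each other than those of any other group (chi-square of 64.5 per degree of freedom, against 4.63 to 29.1).

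Tmem176b was at 217 and 241 CPM in MDSC Shp2f/f and at 137 and 164 CPM in MDSC Shp2f/fLysMcre. Tmem176a was at 123 and 126 CPM and at 89.0 and 92.1 CPM in the same order. Both pairs of groups were separate, as were those of all 10 members in MDSC, 9 lower and Ms4a4b higher in Shp2f/fLysMcre, where 24.1% and 24.9% of all genes tested had separate groups in these directions. The differences of -0.61 (SE 0.14) and -0.47 (SE 0.10) had edgeR adjusted p of 0.0832 and 0.0820. Ms4a4c was at 295 and 312 CPM in Shp2f/f and at 226 and 201 CPM in Shp2f/fLysMcre (log2 fold change -0.51, SE 0.12, edgeR adjusted p = 0.0964). Ms4a6d was at 468 and 511 CPM and at 364 and 339 CPM (-0.48, SE 0.12, edgeR adjusted p = 0.105).

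For Ms4a6c and Ms4a6b the 2 Shp2f/fLysMcre libraries were far apart. Ms4a6c was at 863 and 814 CPM in MDSC Shp2f/f, at 702 CPM in Shp2f/fLysMcre replicate 1 and at 504 CPM in replicate 2. Ms4a6b was at 442, 441, 418 and 324 CPM in the same order. Without Shp2f/fLysMcre replicate 1, edgeR called 7 members lower, beside 10.9% of all genes tested, with Ms4a6c at -0.78 (adjusted p = 0.00660) and Ms4a6b at -0.49 (adjusted p = 0.0188). Without replicate 2 it called 5 lower, beside 5.34% of all genes, and Ms4a4b higher (0.43, adjusted p = 0.0120), beside 12.7%. In these fits a lone library is assumed to vary like the other group. Ms4a4b was the only member with a positive value in the fit of all 4 libraries, at 21.5 and 21.6 CPM in Shp2f/f and at 28.9 and 22.7 CPM in Shp2f/fLysMcre (0.25, SE 0.15, edgeR adjusted p = 0.465).

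**Figure D3:**
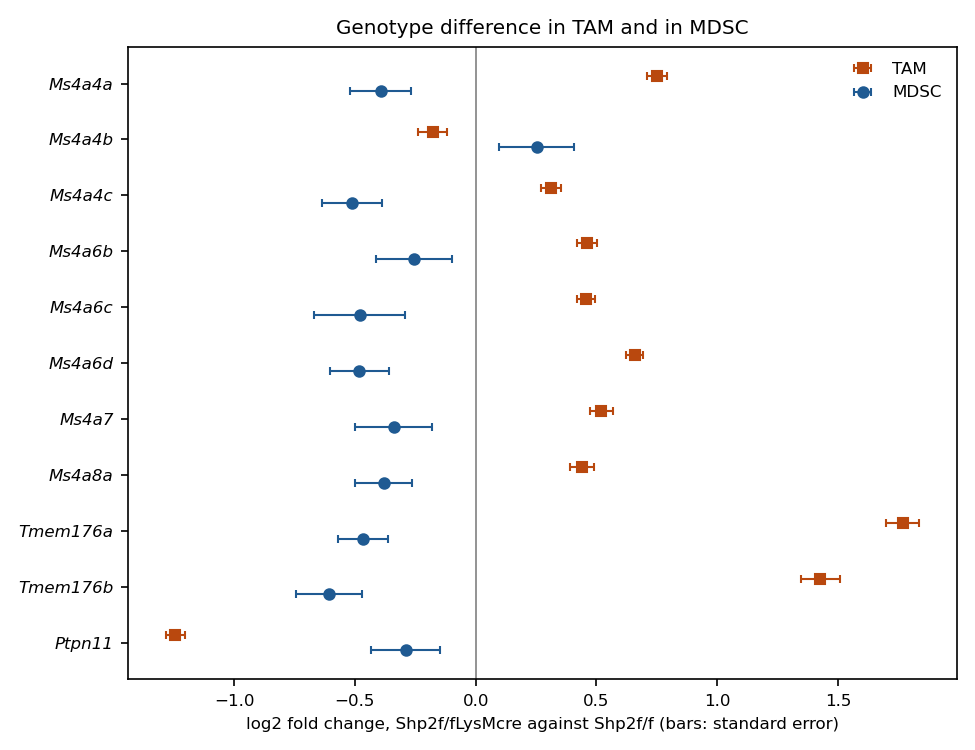
Log2 fold change of Shp2f/fLysMcre against Shp2f/f (horizontal axis) for each member and Ptpn11, with squares for TAM, circles for MDSC and bars for the standard error. In TAM 9 members lie right of 0 and Ms4a4b lies left at -0.18, whereas in MDSC 9 members lie left of 0 and none passed the edgeR threshold.

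Whether the genotype difference itself depended on the cell type was tested as an interaction over all 10 libraries. It was called for 9 of 10 members, each with a larger value in TAM, where 12.2% of 16581 genes were called in that direction and 12.7% in the other. The interaction uses the same libraries as the comparisons above and is likewise descriptive. Its fit shared the estimate of the spread between TAM and MDSC, although MDSC replicates differed more from each other. For each Ms4a member its SE was below that of the MDSC comparison alone (0.10 and 0.13 for Ms4a4a). For the Tmem176 pair it was above. The adjusted p of the Ms4a members may therefore be too small. Tmem176a had the largest value (2.26, SE 0.11, edgeR adjusted p = 6.55e-06), followed by Tmem176b (2.06, SE 0.16, edgeR adjusted p = 3.1e-05). For Ms4a4a and Ms4a6d the value was 1.17 (SE 0.10 for each), and for the other 5 genes it lay between 0.75 for Ms4a6b and 0.97 for Ms4a6c. Ms4a4b was not called (-0.40, SE 0.14, edgeR adjusted p = 0.0651). Scaling by total counts moved the median of all genes to -0.18 and the calls from 2030 higher and 2102 lower to 1234 and 3132, and the 9 members kept their sign and call. Ptpn11 had an interaction of -0.92 (SE 0.12, edgeR adjusted p = 0.00045).

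The cell types were then compared within Shp2f/f, to give the level of each gene where SHP-2 was intact. In this comparison 40.0% of 15659 genes were called higher in TAM and 38.8% lower, so that a call is the usual outcome. Of the members, 2 were higher in TAM, 5 were lower and 3 were not called. Ms4a7 differed most, with 487 to 514 CPM in TAM against 9.32 and 10.7 CPM in MDSC, a 49.7-fold difference (log2 fold change 5.64, SE 0.07, edgeR adjusted p = 1.52e-11). Ms4a6d was 2.001-fold higher in TAM (log2 fold change 1.001, SE 0.06). Tmem176a and Tmem176b were lower in TAM, by -2.67 (SE 0.07) and -2.45 (SE 0.08) on the log2 scale. Ms4a8a (-1.15, SE 0.06), Ms4a4b (-0.79, SE 0.06) and Ms4a6c (-0.27, SE 0.05) were also called lower in TAM, whereas Ms4a4a (0.13, SE 0.06), Ms4a4c (0.10, SE 0.05) and Ms4a6b (-0.03, SE 0.05) were not called.

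The Tmem176 genes therefore had the lowest level in TAM Shp2f/f and the highest in MDSC Shp2f/f. Tmem176b averaged 229 ± 17.3 CPM (SD, n = 2) in MDSC Shp2f/f, 151 ± 19.0 (n = 2) in MDSC Shp2f/fLysMcre, 116 ± 10.7 (n = 3) in TAM Shp2f/fLysMcre and 42.0 ± 4.37 (n = 3) in TAM Shp2f/f. Tmem176a followed the same order with 125 ± 2.08, 90.5 ± 2.20, 68.6 ± 3.85 and 19.7 ± 1.87 CPM. For both genes no library of one group reached into the range of the next. Ms4a8a had the same order, from 58.2 ± 4.58 CPM in MDSC Shp2f/f down to 26.3 ± 1.15 CPM in TAM Shp2f/f.

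To compare the members with each other, CPM were divided by the kilobases of annotated exon. Per length Ms4a4a stood highest in all 4 groups, at 550 ± 44.7 CPM per kb in MDSC Shp2f/f, 420 ± 22.1 in MDSC Shp2f/fLysMcre, 601 ± 27.4 in TAM Shp2f/f and 1037 ± 29.99 in TAM Shp2f/fLysMcre. In TAM Shp2f/f its libraries overlapped those of Ms4a6d, the second (566 ± 24.9 CPM per kb), and in TAM Shp2f/fLysMcre they did not (915 ± 26.0 for Ms4a6d). Ms4a6c and Ms4a4c came next in TAM, with 341 ± 16.1 and 186 ± 8.14 CPM per kb in Shp2f/f. Ms4a7, at 112 ± 3.24 CPM per kb, was the fifth in TAM Shp2f/f and last in MDSC Shp2f/f, where it had 2.24 ± 0.215 CPM per kb. Ms4a4b was last in TAM, with 1.42 ± 0.0493 and 1.29 ± 0.0421 CPM per kb. Neighbouring ranks overlapped in MDSC Shp2f/f for Ms4a6b and Tmem176b and for Tmem176a and Ms4a8a, and in MDSC Shp2f/fLysMcre for Ms4a8a and Tmem176a. All other neighbouring ranks had separate ranges within their group.

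**Figure D4:**
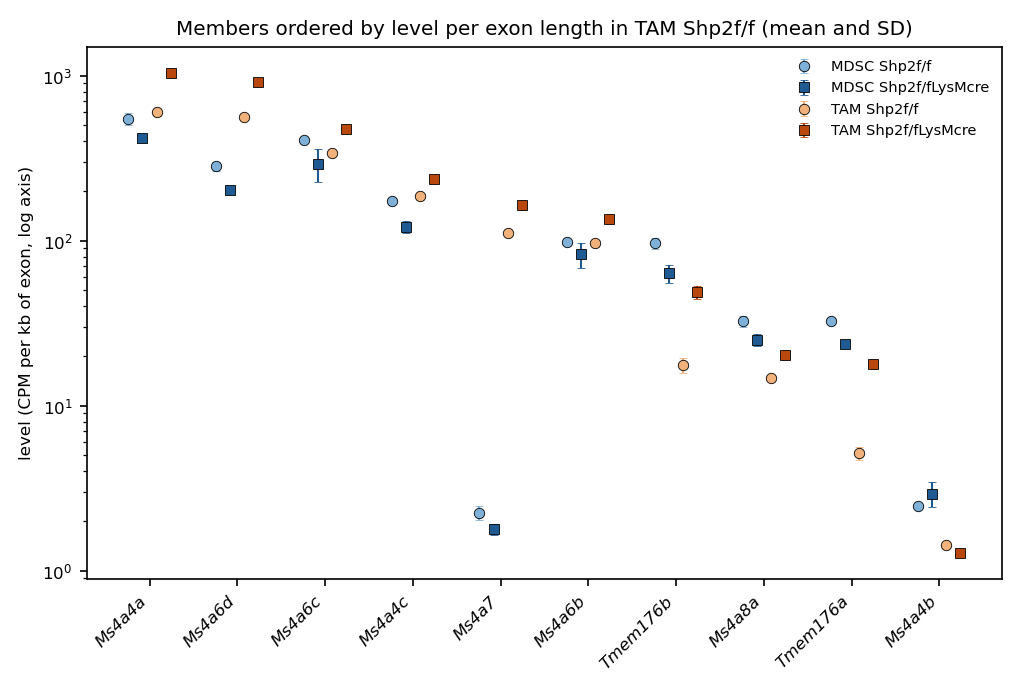
Level per exon length (vertical log axis, CPM per kb, mean with SD over libraries) of the 10 members in the 4 groups, ordered by TAM Shp2f/f. Ms4a4a is highest in each group, and Ms4a7 spans the widest range, from 1.78 CPM per kb in MDSC Shp2f/fLysMcre to 164 CPM per kb in TAM Shp2f/fLysMcre.

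Of the 11 other Ms4a genes of the table, 4 were tested in at least one comparison and 7 had at most 8 counts in any library. Ms4a14, which lies next to Ms4a7, was close to absent from MDSC at 0.108 to 0.406 CPM. In TAM it was at 96.9, 87.7 and 87.3 CPM in Shp2f/f and at 122, 147 and 148 CPM in Shp2f/fLysMcre (log2 fold change 0.58, SE 0.07, edgeR adjusted p = 4.74e-05). Its genotype groups in TAM did not overlap, as for Ms4a7.

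The other 3 are known from progenitors, from mast cells and basophils, or from B cells. Ms4a3, known from granulocyte and monocyte progenitors, was at 27.1 and 27.7 CPM in MDSC Shp2f/f and at 93.3 and 80.1 CPM in MDSC Shp2f/fLysMcre (log2 fold change 1.66, SE 0.13, edgeR adjusted p = 0.0170), and at most at 0.184 CPM in TAM. Ms4a2, the beta chain of the IgE receptor of mast cells and basophils, was at 1.05 and 1.07 CPM and at 3.22 and 3.002 CPM in the same order (1.55, SE 0.24, edgeR adjusted p = 0.0340). The 6 mast cell and basophil markers summed to 69.6 to 87.0 CPM in MDSC Shp2f/f and to 134 to 156 CPM in MDSC Shp2f/fLysMcre, with Tpsb2 at 0 in both. Most of each sum was Hdc, which averaged 72.8 and 131 CPM in these groups. Hdc also averaged 48.5 CPM in TAM Shp2f/f, where Ms4a2 averaged 0.0359 CPM, so the sums do not measure mast cells and basophils alone. Of the 4 markers of this list tested in MDSC, 1 was called higher, beside 3.76% of all genes tested. It was Mcpt8 (1.39, SE 0.20, edgeR adjusted p = 0.0290). At an unadjusted p under 0.05 the count was 4 higher, beside 13.3%. Ms4a1, the B cell antigen CD20, was at 4.76 and 2.94 CPM in MDSC Shp2f/f and at 1.11 and 0.525 CPM in MDSC Shp2f/fLysMcre (-2.24, SE 0.46, edgeR adjusted p = 0.0648). The 6 B cell markers summed to 29.1 to 36.9 CPM and to 22.8 to 26.5 CPM there. Of these markers 2 were called lower and 0 higher by edgeR, beside 0.52% and 3.76% of all genes tested in MDSC. DESeq2 called 2 lower and 1 higher. The list was split, as Blk averaged 4.09 CPM in MDSC Shp2f/f and 8.43 CPM in MDSC Shp2f/fLysMcre (1.03, SE 0.27, edgeR adjusted p = 0.115). Ms4a3, Ms4a2 and Ms4a1 thus had MDSC values of both signs, while the members were mostly negative. The part of the marker differences in these 3 genes was not tested.

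Genes linked to the family were read from lists that were chosen with earlier results of these data known. The MS4A4A partner list held Clec7a (dectin-1), the lipid receptor gene Trem2, its adaptor Tyrobp, and the kinase and adaptor genes Syk and Card9. In TAM 3 of 5 were called higher in Shp2f/fLysMcre and 1 lower, where 23.9% and 26.3% of all genes were, with a list median of 0.10 beside -0.01 for all genes. Card9 rose from 57.5 ± 0.948 to 73.0 ± 3.79 CPM (log2 fold change 0.31, SE 0.05, edgeR adjusted p = 0.000165). Syk rose by 0.21 (SE 0.04, edgeR adjusted p = 0.00184) and Tyrobp by 0.10 (SE 0.04, edgeR adjusted p = 0.0431). Trem2 was lower in both cell types, by a log2 fold change of -0.15 (SE 0.05, edgeR adjusted p = 0.0336) in TAM and of -1.01 (SE 0.13, edgeR adjusted p = 0.0234) in MDSC. Its MDSC libraries were at 92.8 and 105 CPM in Shp2f/f and at 45.2 and 53.5 CPM in Shp2f/fLysMcre. Trem2 was the only gene of this list called in MDSC. Clec7a was at 239 ± 7.64 and 245 ± 2.78 CPM in TAM and was not called.

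Of the 6 NLRP3 inflammasome genes, 5 were called higher in TAM Shp2f/fLysMcre and 1 lower, with a median of 0.27, where 23.9% and 26.3% of all genes were called and their median was -0.01. The sensor gene Nlrp3 was at 640, 630 and 622 CPM in Shp2f/f and at 813, 834 and 838 CPM in Shp2f/fLysMcre (log2 fold change 0.36, SE 0.03, edgeR adjusted p = 7.42e-06). The cytokine genes Il18 and Il1b rose by 0.41 (SE 0.05, edgeR adjusted p = 2.87e-05) and 0.26 (SE 0.04, edgeR adjusted p = 9.24e-05). The adaptor gene Pycard rose by 0.29 (SE 0.06, edgeR adjusted p = 0.00204) and the protease gene Casp1 by 0.12 (SE 0.04, edgeR adjusted p = 0.0417). Gsdmd, which encodes the pore-forming gasdermin D, was lower (-0.13, SE 0.05, edgeR adjusted p = 0.0298). In MDSC 0 of 6 were called by edgeR or DESeq2, and 1 was lower at an unadjusted p under 0.05.

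The genes around each cluster were read to see whether the differences reached beyond it. Protein-coding neighbours within 250 kb numbered 19 for the MS4A cluster and 21 for the TMEM176 pair. Across all genes tested in TAM, 23.9% were called higher and 26.3% lower. Of the MS4A neighbours 9 were tested there, of which 3 were called higher and 4 lower (median -0.11). Those higher were Slc15a3, Tmem132a and Stx3 and those lower were Cd6, Prpf19, Ccdc86 and Mrpl16, named after their values were seen. Of 14 tested TMEM176 neighbours, 8 were called lower and 1, Gpnmb, higher (0.35, SE 0.04, also named after its value was seen), with a median of -0.83. The largest called differences around either cluster were those of AI854703 (-1.53, SE 0.42, edgeR adjusted p = 0.0100), Gimap5 (-1.43, SE 0.31, edgeR adjusted p = 0.00253) and Gimap4 (-1.13, SE 0.14, edgeR adjusted p = 4.88e-05). The first of these were near the floor in TAM. AI854703 averaged 0.312 CPM in Shp2f/f and 0.107 CPM in Shp2f/fLysMcre, and Gimap5 0.635 and 0.236 CPM. The Gimap genes encode GTPases best known from lymphocytes, and Gimap4 was at 4.44 ± 0.512 and 2.09 ± 0.142 CPM in TAM. The 8 T and NK cell markers had a median of -1.23 in the same comparison, and their part in the Gimap values was not tested. In MDSC 0 neighbours were called by edgeR or DESeq2. At an unadjusted p under 0.05, 1 of each cluster was lower there, beside 6.03% of all genes tested. Tmem176a and Tmem176b thus stood with positive values among neighbours that were mostly negative in TAM.

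**Figure D5:**
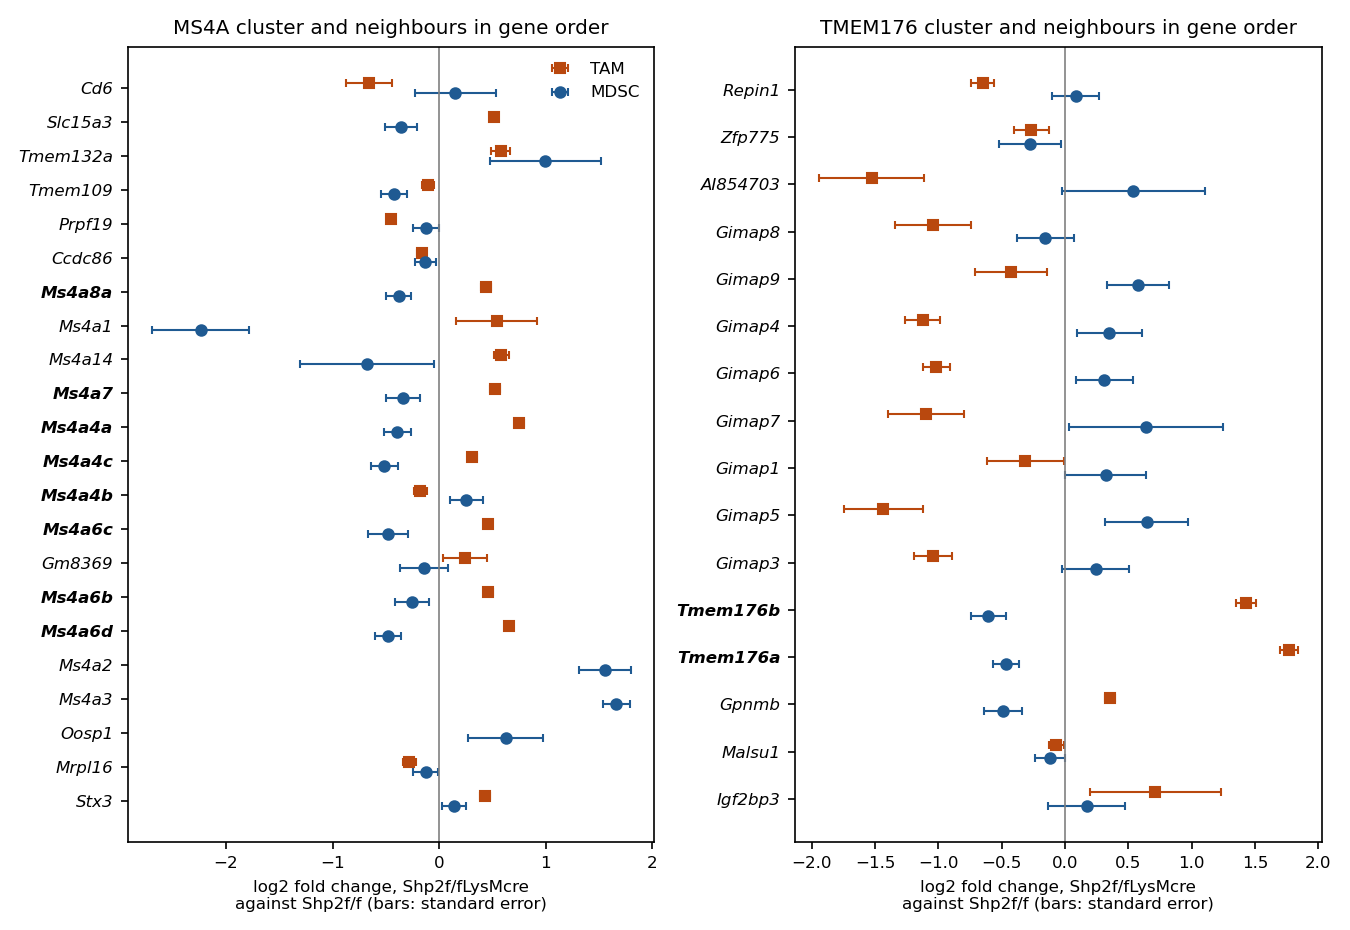
Log2 fold change of Shp2f/fLysMcre against Shp2f/f (horizontal axis, bars for the standard error) for the tested genes of each cluster and its neighbours in their order along the chromosome, with members in bold, squares for TAM and circles for MDSC. In TAM the Tmem176 pair stands at 1.43 and 1.77 beside Gimap genes at negative values, and Ms4a3 and Ms4a2 lie at 1.66 and 1.55 in MDSC.

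Finally, the genes most like Ms4a7 and Tmem176b across libraries were listed among non-members with a mean of at least 10 CPM. For Ms4a7 they were Zc3h12a (Pearson r of log2 CPM 0.9995, n = 10 libraries), Rnf157 (0.9995) and 1700017B05Rik (0.9993), each high in TAM and low in MDSC. For Tmem176b they were Rhog (0.9916), Trim41 (0.9911) and Psap (0.9902), while Tmem176a, a member, had 0.9934. Rhog, a small GTPase gene, was at 415, 377, 261 and 342 CPM on average in MDSC Shp2f/f, MDSC Shp2f/fLysMcre, TAM Shp2f/f and TAM Shp2f/fLysMcre. These libraries fall into 4 groups, so the correlations describe group means and carry no test.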

How the data were processed

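Libraries were prepared by the authors from poly(A)-selected RNA with a stranded kit and sequenced as paired 42-nt reads. Per the labels and the study's methods, reads were trimmed with Cutadapt 2.5, aligned with STAR 2.7.3a to GRCm38 and counted per Ensembl gene with featureCounts (Subread 1.6.2). The deposited raw counts are whole reads per gene without normalization and were the only values used. The deposited table divided by size factors, separately for each cell type, was not used.

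Genes were matched to a GENCODE annotation of GRCm38 (99.67% of identifiers). Differences between groups were tested on counts by edgeR 4.0.16 under R 4.3.3 (filterByExpr with a minimum count of 10, TMM scaling, quasi-likelihood F test), and p-values were adjusted over all genes tested by the Benjamini-Hochberg method. Calls required an adjusted p below 0.05. CPM were scaled over all 10 libraries, and correlations used log2 of CPM plus 0.5. The code was tested on simulated data. Members, lists and the rule for named genes were chosen with earlier results of these data known. The rule named all members, Ptpn11, tested Ms4a genes, called partner genes, the 3 neighbours with the largest called changes, and the 3 genes most like Ms4a7 and Tmem176b. Alternatives were DESeq2 1.42.0, its size factors, total-count scaling, other filters, the replicate number as a block, a joint fit of all samples, and leaving out each library.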

Additional observations from a re-analysis of the deposited data

Results flagged for a closer look

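The difference between the TAM and the MDSC genotype effects, tested as an interaction over all 10 libraries, was called for 9 members, Ptpn11 and Ms4a1. On the log2 scale the value was 2.26 for Tmem176a, 2.06 for Tmem176b, 1.17 for Ms4a4a, 1.17 for Ms4a6d, 0.97 for Ms4a6c, 0.89 for Ms4a7, 0.85 for Ms4a8a, 0.85 for Ms4a4c and 0.75 for Ms4a6b, each larger in TAM. Ptpn11 had -0.92. Ms4a1, the B cell gene at or below 4.76 CPM in every library, had 2.80 (SE 0.60, edgeR adjusted p = 0.00772), with neither of its genotype comparisons called alone by edgeR.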

How the results depend on the processing

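Of the single-gene values recomputed under the alternatives, 489 kept their direction and their side of the threshold, 37 gained a call, 9 lost one and 1 changed sign. Ms4a6b between the cell types changed sign without TAM Shp2f/f replicate 1, to 0.000504, and ran from -0.0768 to 0.000504 over the single libraries left out, called in none. The number of members lower in TAM was 1 and became 0 with DESeq2, with no filter, with the replicate block and with one fit of all 10 samples, and ran from 0 to 1 when single libraries were left out. It consists of Ms4a4b alone. The 9 members higher in TAM kept their direction and call under each alternative run. The count lower in MDSC was 0 and became 4 with DESeq2, 6 with the replicate block (5.43% of all genes) and 7 with one fit of all 10 samples, and ran from 0 to 7 when single libraries were left out, while the count higher ran from 0 to 1. The cause was not tested. Ptpn11 in MDSC ran from -0.46 to -0.16 without single libraries, and passed the threshold without Shp2f/fLysMcre replicate 1 (-0.46, adjusted p = 0.0361). The count of members with a lower interaction was 0 and became 1 (Ms4a4b) with total-count scaling, with a minimum count of 50 and with the replicate block, and ran from 0 to 1 without single libraries. In TAM, replicate numbers did not show pairing. Same-numbered TAM libraries of the 2 genotypes had correlations of their deviations of -0.133, 0.0514 and 0.0222. MDSC had only 2 numbers (0.293), which cannot decide whether its replicates are paired. In MDSC the paired fit raised the calls over all genes from 633 to 2674. Depth limits Ms4a1 and Ms4a2, which had at most 164 and 120 counts in a library.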
